A study of Mus musculus with 12 samples.

Results

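Oxidative phosphorylation subunits are described here: all genes of the features tables whose symbols begin with Ndufa, Ndufb, Ndufc, Ndufs or Ndufv and a digit (complex I), Uqcr (complex III), Cox4 to Cox8 (complex IV) or Atp5 (complex V). The rule takes 81 of 32285 genes: 38 of complex I, 8 of complex III, 18 of complex IV and 17 of complex V. It rests on symbols alone and uses no measured value. Ndufa4, known as a complex IV subunit, and its relative Ndufa4l2 are counted with complex I because of their symbols. Cox7a2l, a factor that helps respiratory complexes assemble together, is counted with complex IV. In GENCODE M21, 80 of the members are protein-coding, and Ndufb1-ps is typed as a bidirectional promoter lncRNA.

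The respiratory chain sits in the inner mitochondrial membrane. Complex I takes electrons from NADH, complex III passes them to cytochrome c, complex IV hands them to oxygen, and the proton gradient that builds up drives complex V, the ATP synthase. The nuclear genome encodes most subunits, those described here, and the mitochondrial genome encodes the rest, so that both sets must come together in each complex. Lymphoid cells and fibroblasts can both draw ATP from this chain or from glycolysis, and the balance is known to move with activation.

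Single cells came from ankle and wrist joints of R5 x R26tdTomato mice (Il5 wt/Cre; R26 tdTom/tdTom) aged 8 to 10 weeks. All groups carry the Il5-driven Cre and the reporter: tdTomato marks cells that have at some time expressed Il5. Mice were healthy, had serum transfer arthritis (STA), or had STA and were treated with Il23mc, which the library titles call IL23. Innate lymphoid cells (ILCs) were sorted as CD45+ tdTomato+ cells lacking CD3, both T cell receptor types, CD11b and GR-1, and fibroblasts as CD45- GR-1- cells. The fibroblast gate therefore selects no marker that fibroblasts carry.

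There were 6 wells with 3 hashtags each. In experiment 1 each well of ILCs came from 1 condition, with a hashtag for each of 3 mice; for these ILCs the effect of a well and that of its condition cannot be told apart. The fibroblasts of experiment 1 were run together, with a hashtag for each condition. Experiment 2 used a single well for ILCs and another for fibroblasts, each with healthy cells, cells of mild STA and cells of severe STA. The sample labels say only STA for both grades. The labels speak of 4 pooled animals per well against 3 hashtags, so beyond the ILCs of experiment 1 the number of animals behind a hashtag is unknown. UMIs were summed per hashtag: 795046 to 2030655 UMIs for group 2 ILCs (ILC2) of a mouse in experiment 1, 2503452 to 4638015 per ILC2 hashtag in experiment 2, and 3103104 to 17064647 per fibroblast hashtag. Each well shared 14 to 45 cell barcodes with another well. ILC2 markers summed to 6229 to 9045 CPM in the ILC2 hashtags, and fibroblast markers to 27092 to 45038 CPM in the fibroblast hashtags. In the ILC2 hashtags the 5 fibroblast markers summed to 7.31 to 25.6 CPM, and of these only Pdgfra was at 0 throughout. A level here is a share of the summed UMIs, scaled to 1000000 (CPM). A 3' UMI counts a transcript once whatever its length, so levels are not divided by length.

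Promoters from RefSeq (GRCm38.p6, 250 bases before to 50 after the start) were found for 64 members. The promoters of 4 members named in the results below are shown first. Ndufa3 rose with STA in both cell types. Atp5md and Uqcrh were among the members called higher in ILC2 of Il23mc mice against healthy mice. Ndufa4 fell in ILC2 of Il23mc mice against STA mice. Uqcrb, Atp5mpl and Ndufb1-ps, also called higher in Il23mc against healthy mice, had no promoter in this set. Capitals mark motif matches on either strand: ACGTG, the core to which HIF factors bind, read as CACGT in Ndufa3, and CCGGAAG, an ETS site, read as CTTCCGG in Atp5md and Uqcrh. They lie at chr7:3617123-3617422 (+), chr19:47090598-47090897 (-), chr4:116075021-116075320 (-) and chr6:11907401-11907700 (-).
Ndufa3: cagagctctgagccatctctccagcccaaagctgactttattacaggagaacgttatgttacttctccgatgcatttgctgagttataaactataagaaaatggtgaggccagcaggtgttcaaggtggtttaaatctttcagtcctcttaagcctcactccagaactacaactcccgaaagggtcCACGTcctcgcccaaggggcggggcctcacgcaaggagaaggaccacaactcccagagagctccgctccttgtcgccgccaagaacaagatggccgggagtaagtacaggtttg
Atp5md: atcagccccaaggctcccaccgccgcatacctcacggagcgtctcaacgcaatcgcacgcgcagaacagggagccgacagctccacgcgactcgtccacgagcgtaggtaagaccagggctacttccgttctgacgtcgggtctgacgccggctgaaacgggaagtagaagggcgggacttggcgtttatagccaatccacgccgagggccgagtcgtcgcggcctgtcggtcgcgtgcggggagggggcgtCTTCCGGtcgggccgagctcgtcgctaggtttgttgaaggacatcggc
Uqcrh: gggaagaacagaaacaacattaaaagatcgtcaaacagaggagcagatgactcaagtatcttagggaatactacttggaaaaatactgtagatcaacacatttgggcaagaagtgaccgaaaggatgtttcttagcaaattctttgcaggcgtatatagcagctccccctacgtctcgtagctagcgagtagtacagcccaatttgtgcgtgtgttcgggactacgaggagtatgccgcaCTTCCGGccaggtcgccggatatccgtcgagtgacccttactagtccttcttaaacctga
Ndufa4: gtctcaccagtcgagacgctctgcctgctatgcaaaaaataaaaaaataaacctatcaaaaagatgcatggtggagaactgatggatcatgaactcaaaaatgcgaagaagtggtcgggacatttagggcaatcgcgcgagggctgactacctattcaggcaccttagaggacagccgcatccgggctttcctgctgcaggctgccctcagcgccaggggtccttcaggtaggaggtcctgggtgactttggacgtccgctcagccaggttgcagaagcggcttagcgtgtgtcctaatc
None of the 4 motifs searched was found in the Ndufa4 window. Over the members, the ETS motif CCGGAAG was in 15 of 64 (23.4%) against 9.93% of 27025 genes, and AAGATGGCG, a YY1 motif, in 7 (10.9% against 1.64%). The palindrome to which NRF1 binds was in 5 (7.81% against 1.07%): Atp5g2, Atp5k, Cox6a1, Ndufa11 and Uqcrc1. The HIF core ACGTG was in 15 (23.4% against 21.8%). Of all 32851 promoters of this length, 8.86% held the ETS motif, 1.40% YY1, 0.971% NRF1 and 19.6% the HIF core. ETS, YY1 and NRF1 factors are known regulators of respiratory chain genes; a match is a run of letters, not a site shown to be bound.

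In ILC2 of healthy mice of experiment 1 the members together held 14666, 14094 and 15301 CPM (mean 14687 ± 603, SD, n = 3). Complex V was the most abundant group with 5256 ± 184 CPM, ahead of complex I (3989 ± 281), complex IV (3949 ± 113) and complex III (1492 ± 66.6). The most abundant member of each complex over the 9 mice was Atp5e, the small epsilon subunit of the ATP synthase, at 823 CPM, Uqcrh, the hinge protein of complex III, at 753 CPM, Cox6c of complex IV at 718 CPM and Ndufa2 of complex I at 302 CPM. The 13 subunits encoded by the mitochondrial genome held 55006 ± 1273 CPM in the same cells.

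In STA mice the summed level was 17010, 16803 and 16239 CPM (16684 ± 399, n = 3), in each above the 3 healthy mice. In Il23mc mice the sums were 16746, 16385 and 13199 CPM (15443 ± 1952), so mouse 3 lay below the healthy mice and the other 2 within the range of the STA mice. UMIs of Cd3d or Cd3e were present in 33.0, 12.5 and 6.20% of the ILC2 of Il23mc mice 1, 2 and 3. Once such cells were dropped from all groups, mouse 1 lay within the healthy range, mouse 2 above it and mouse 3 below it. The mean of the Il23mc mice was then no longer above that of the healthy mice. In experiment 2, where the conditions shared a well, the ILC2 sums ran 13289 CPM in healthy, 13984 in mild and 14621 in severe STA. The healthy cells there carry the authors' hashtag calls and classes, and the STA cells calls and classes made here; calling hashtags in this well again found 70.3% of the authors' calls. With 1 rule for all cells of the well, a choice made after seeing the data, healthy ILC2 held 13584 CPM. The mitochondria-encoded sum did not follow: it was 51362 ± 1879 CPM in STA and 43402 ± 1884 in Il23mc mice, and 37198, 33526 and 36737 CPM in the healthy, mild and severe hashtags of experiment 2.

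**Figure D1:**
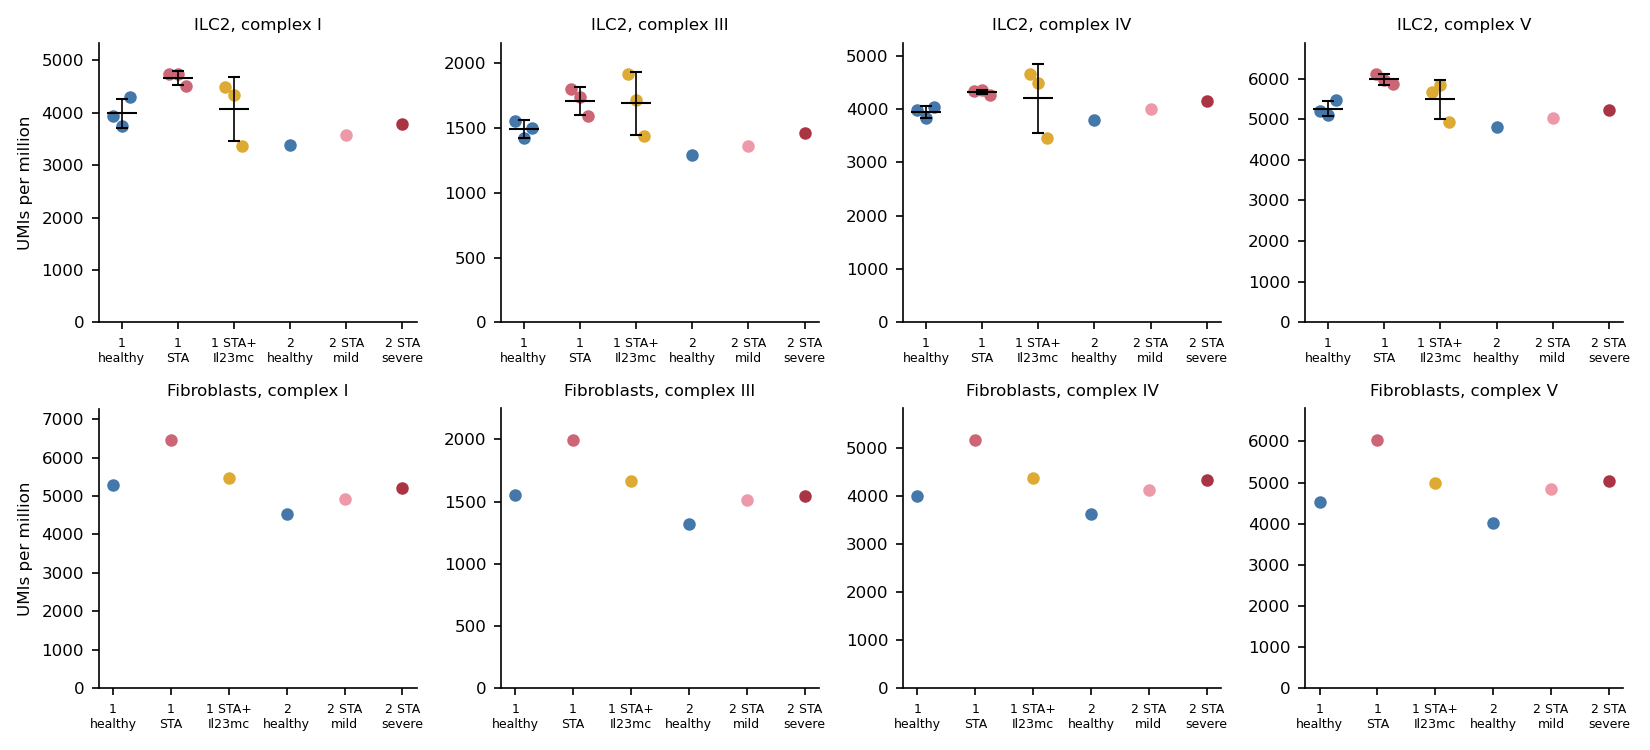
Summed level of the members of complexes I, III, IV and V (y axis, CPM, from 0) in ILC2 (top) and fibroblasts (bottom), 1 point per hashtag, with experiment number and condition on the x axis; black marks give mean and SD of 3 mice. In ILC2 of experiment 1 every complex V value of the STA mice (5862 to 6122) lies above the healthy mice (5106 to 5461), and in fibroblasts each complex is highest in the STA hashtag of experiment 1.

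Gene by gene, 3 of 73 tested members rose in ILC2 with STA against healthy (edgeR, adjusted over 7272 genes, threshold 0.05), where 1.47% of all genes tested rose. They were Ndufa3 and Ndufb1-ps of complex I and Uqcrb of complex III. None fell (1.07% of all genes did): none was lower at an unadjusted p under 0.05 either, against 21 higher, and DESeq2 called 4 higher and 0 lower. The members lay slightly higher as a group: 65 of 73 were above 0, with a median log2 fold change of 0.21 against -0.01 over all genes tested. The medians of the complexes were alike, at 0.21, 0.20, 0.21 and 0.22 for I, III, IV and V.

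Ndufa3, a small accessory subunit of complex I, stood at 86.8, 81.3 and 108 CPM in healthy mice and at 216, 197 and 171 CPM in STA mice. The groups did not overlap, and Ndufa3 rose by 1.15 on the log2 scale (SE 0.18, edgeR adjusted p = 0.0029). Within the shared well of experiment 2 it was at 83.4 CPM in healthy, 133 in mild and 134 in severe STA ILC2, a severe to healthy ratio of 1.61 (95% counting interval 1.41 to 1.83, 1 hashtag each). With 1 rule for hashtags and classes in the whole well the ratio was 1.47 (1.28 to 1.68). The gene (ENSMUSG00000035674) lies at chr7:3617373-3620327 (mm10, + strand) and shares exon bases with Tfpt on the other strand. Tfpt did not reach the level to be tested in ILC2. Whether the authors' counting used strand is not given in the sources used here.

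Ndufb1-ps, whose symbol marks a pseudogene of a complex I subunit, was at 213, 211 and 235 CPM in healthy and at 383, 328 and 346 CPM in STA mice. Again no STA mouse reached down to the healthy ones, and the gene rose by 0.74 (SE 0.14, edgeR adjusted p = 0.011). It overlaps an exon of Cpsf2 (chr12:101968090-101977068, - strand), whose own value was 0.22 (adjusted p = 0.81). Uqcrb, a subunit needed for complex III to form, was at 96.8, 103 and 101 CPM in healthy and at 151, 164 and 131 CPM in STA mice, and rose by 0.62 (SE 0.14, edgeR adjusted p = 0.030). In experiment 2 the severe to healthy ratio was 1.23 (1.12 to 1.36) for Ndufb1-ps and 1.24 (1.07 to 1.44) for Uqcrb. With 1 rule these were 1.22 (1.11 to 1.35) and 1.18 (1.01 to 1.37).

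The count of 3 moved with single mice. It was 1 without healthy mouse 2 or STA mouse 1, 5 without Il23mc mouse 1, which shares in the estimate of the spread, and 7 without Il23mc mouse 3. The calls over all genes moved too: 107 rose and 78 fell of 7272, against 55 and 29 of 7541 without healthy mouse 2, 58 and 26 of 7573 without STA mouse 1, 172 and 116 of 7600 without Il23mc mouse 1, and 157 and 110 of 7631 without Il23mc mouse 3. Over all called cells of the wells, whatever their class, it was 0 (14 members at an unadjusted p under 0.05), with Ndufa3 at 0.92 (adjusted p = 0.098); of all 10007 genes tested there 5 rose and 3 fell. T cell markers summed to 404 to 527 CPM in the STA mice and 297 to 391 in healthy mice, and B or plasma cell markers to 57.6 to 184 and 25.2 to 48.0 CPM, in both lists with no overlap. Mast cell markers summed to 253 to 1204 CPM in the STA mice and 275 to 365 in healthy mice, which overlap. Polr2l, which encodes an RNA polymerase subunit, was at 59.5 to 74.0 CPM in the STA well against 25.2 to 30.2 in the healthy well. ILC2 of STA mice were also deeper, at a median of 5731.5, 5447.5 and 4972 UMIs per cell in mice 1 to 3. Healthy mice had 4112, 4657 and 4558, with no overlap. Without cells holding Cd3d or Cd3e UMIs, 7 members were called higher and 0 lower, where 188 of all 7113 genes rose and 120 fell. The part of the rest of these differences in the result was not tested. In the shared well of experiment 2, T cell markers summed to 357 CPM in healthy, 421 in mild and 394 in severe STA ILC2. B or plasma cell markers were at 34.5, 22.0 and 39.3 CPM and Polr2l at 17.2, 23.2 and 16.1 CPM. The median depth there was 5316, 5818.5 and 5501 UMIs per cell. The part of these in the smaller Ndufa3 ratios of experiment 2 given above was not tested.

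Related pathways were followed in ILC2 through gene lists. With STA, 1 of 17 tested assembly factors rose: Cox17, the copper chaperone of complex IV, by 0.88 (adjusted p = 0.018). Of 13 glycolysis genes Ldha, which makes lactate, rose by 0.53 (adjusted p = 0.034). None of 13 mitochondria-encoded subunits, 4 complex II genes, 12 citrate cycle genes or 9 biogenesis factors passed in either direction, with medians of -0.03, 0.15, 0.08 and -0.26. Cytosolic ribosomal protein genes, short and abundant like many of the members, had 6 of 82 higher and 1 lower with a median of 0.14.

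Il23mc against healthy called 6 of 73 members higher (4.61% of all genes rose) and 0 lower (2.75% fell; 2 members were lower at an unadjusted p under 0.05, and DESeq2 called 6 higher and 0 lower). This comparison shares its healthy mice with the one above. Ndufa3 was at 196, 218 and 134 CPM, above all healthy mice, and rose by 1.10 (SE 0.18, edgeR adjusted p = 0.0014). Uqcrb was at 140, 141 and 149 CPM and rose by 0.62 (SE 0.14, adjusted p = 0.015), and Ndufb1-ps at 357, 317 and 246 CPM by 0.59 (SE 0.14, adjusted p = 0.020).

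The other 3 members called were Uqcrh, Atp5md and Atp5mpl. Uqcrh went from 721, 613 and 603 CPM in healthy mice to 988, 852 and 721 CPM, a change of 0.50 (SE 0.13, edgeR adjusted p = 0.031), with mouse 3 no higher than healthy mouse 1. Atp5md, a small membrane subunit of the ATP synthase, was at 247, 229 and 233 CPM in healthy and 320, 309 and 287 CPM in Il23mc mice, a rise of 0.48 (SE 0.13, adjusted p = 0.029). Atp5mpl, another small membrane protein of the ATP synthase, was at 327, 300 and 334 CPM in healthy and 403, 435 and 372 CPM in Il23mc mice, a rise of 0.44 (SE 0.13, adjusted p = 0.0495). The STA mice already stood at 309 to 330 CPM for Atp5md and 394 to 417 CPM for Atp5mpl, where the test against healthy did not call them.

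The count moved with single mice here too: 2 without healthy mouse 1, 3 without healthy mouse 2, 1 without healthy mouse 3, 2 without Il23mc mouse 2 (1 higher and 1 lower) and 11 without Il23mc mouse 3. ILC3 markers summed to 899 to 3290 CPM in the Il23mc ILC2 and 614 to 753 in healthy ones, with no overlap; the part of this in the result was not tested. T cell markers summed to 326 to 2275 and 297 to 391 CPM, and 33.0% of the ILC2 cells of Il23mc mouse 1 held a Cd3d or Cd3e UMI although the sort had excluded CD3. Without such cells 6 members were called, among them Cox7a2l (0.53, edgeR adjusted p = 0.029) and not Atp5md (0.38, adjusted p = 0.072). Of the related lists, mt-Co1, the mitochondria-encoded catalytic subunit of complex IV, fell by 0.63 (adjusted p = 0.00075), Cox17 rose by 1.00 (adjusted p = 0.00315) and Ldha by 0.47 (adjusted p = 0.030).

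**Figure D2:**
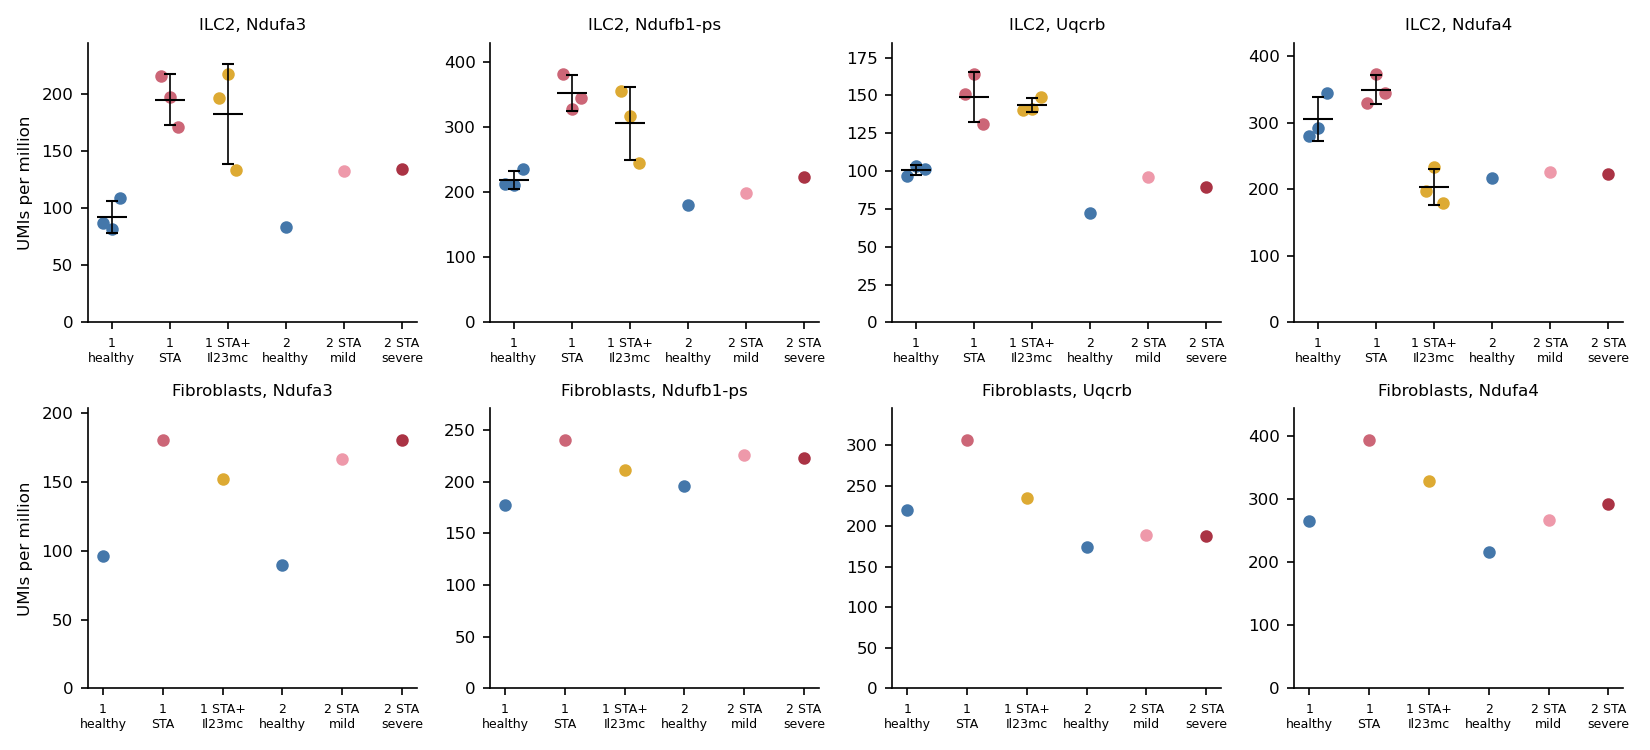
Level (y axis, CPM, from 0) of Ndufa3, Ndufb1-ps, Uqcrb and Ndufa4 in ILC2 (top) and fibroblasts (bottom), 1 point per hashtag, with mean and SD of 3 mice in black. Ndufa3 is lowest in the healthy hashtags of both cell types and both experiments, and Ndufa4 in ILC2 of experiment 1 is lowest in Il23mc mice.

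Il23mc against STA called 1 of 73 members lower (0.523% of all genes fell) and 0 higher (1.16% rose; 1 member was higher at an unadjusted p under 0.05, and DESeq2 called 0 higher and 1 lower). The member was Ndufa4, a subunit that stabilises complex IV. It was at 330, 374 and 345 CPM in STA mice and at 197, 234 and 179 CPM in Il23mc mice, with no overlap, and fell by 0.73 (SE 0.15, edgeR adjusted p = 0.017). Healthy mice held 280, 292 and 344 CPM, and the value against them was -0.47 (adjusted p = 0.069), which passed at -0.61 (adjusted p = 0.040) without Il23mc mouse 2. Without STA mouse 2 or STA mouse 3 the adjusted p was 0.10 or 0.067 and no member was called; without cells holding Cd3d or Cd3e UMIs it was 0.0044. The ILC2 of experiment 2, none of them treated with Il23mc, held 216, 226 and 223 CPM in healthy, mild and severe STA. Healthy ILC2 of experiment 2 held 0.709 of the Ndufa4 level of healthy ILC2 in experiment 1, and many other members differed between the experiments too. Within experiment 1 the part of the well in this fall cannot be told apart from that of Il23mc. The median over members was -0.08 against 0.00 over all genes. mt-Co1 fell by 0.72 (adjusted p = 0.00078).

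**Figure D3:**
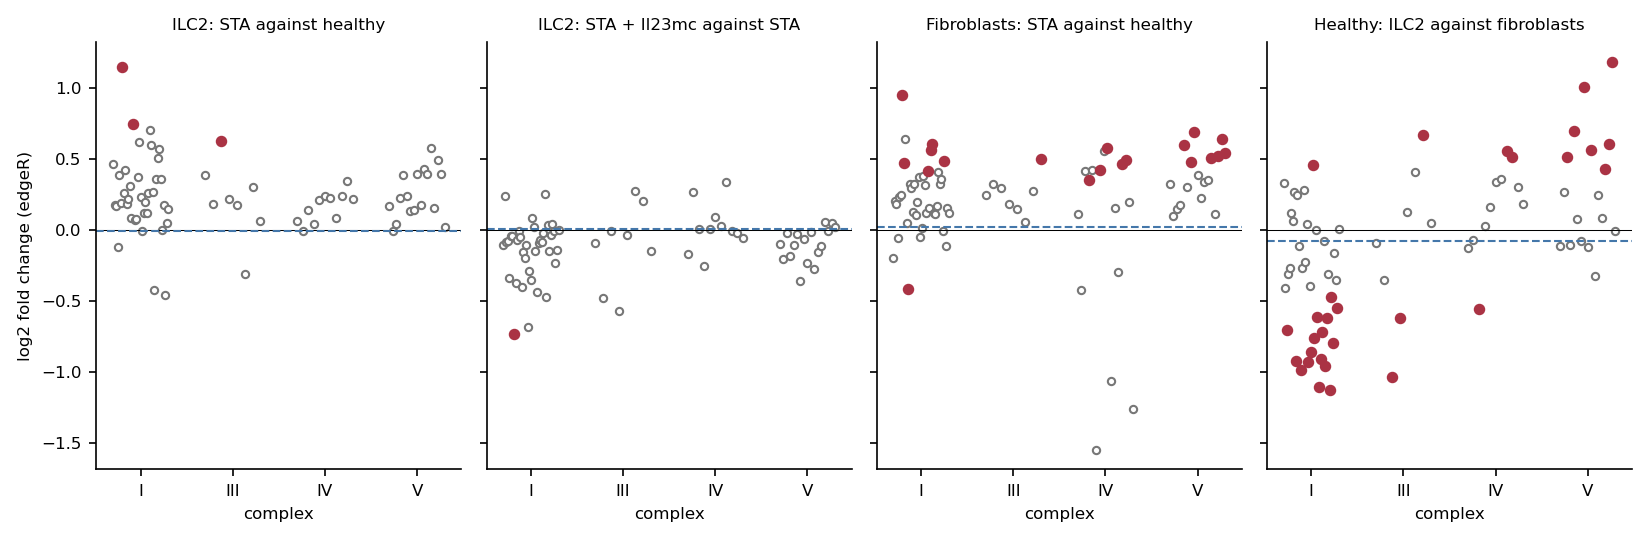
Log2 fold changes of the tested members by complex (x axis) in 4 comparisons, 1 point per gene; filled points passed an adjusted p of 0.05 (edgeR), and the dashed line is the median of all genes tested. Ndufa4l2 in the last panel lies outside the range drawn. In the last panel 17 of 38 complex I members are called lower in ILC2 (34.9% of all genes) and 7 of 17 complex V members higher (27.7% of all genes).

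In fibroblasts the members that rose with STA came from all 4 complexes. With 3 STA hashtags against 2 healthy ones and a term for experiment, 19 of 79 tested members rose (9.83% of all genes did) and 1 fell (8.76%). Complex V led with 7 of 17, followed by complex IV with 5 of 16, complex I with 6 of 38 and complex III with 1 of 8. The median was 0.27 against 0.02 over all genes, and 68 of 79 were above 0. The summed levels were 15366 CPM in healthy, 19688 in STA and 16514 in Il23mc fibroblasts of experiment 1, and 13488, 15381 and 16120 CPM in healthy, mild and severe STA of experiment 2, so that each STA hashtag exceeded the healthy one of its own well.

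Ndufa3 again led. It was at 96.1 and 89.9 CPM in the healthy hashtags of experiments 1 and 2, and at 181, 167 and 181 CPM in the STA, mild and severe hashtags, with no overlap (log2 fold change 0.95, SE 0.11, edgeR adjusted p = 0.0030). Tfpt, on its other strand, was at -0.10 (adjusted p = 0.79). Among the ATP synthase genes, Atp5g2, one of the copies that encode the rotor's c subunit, went from 295 and 203 CPM to 449, 335 and 336 CPM and rose by 0.69 (SE 0.10, adjusted p = 0.0066). Atp5mpl was at 132 and 163 CPM in healthy and 223, 233 and 238 CPM in STA hashtags, a rise of 0.64 (SE 0.11, adjusted p = 0.0090). Atp5e rose by 0.59 (SE 0.10, adjusted p = 0.0084), from 507 and 436 CPM to 747, 661 and 655 CPM. Atp5o, the stalk subunit, Atp5md, Atp5k and Atp5g1 rose by 0.48 to 0.54.

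In complex I, Ndufc2 and Ndufc1, both small accessory subunits, rose by 0.61 (adjusted p = 0.012) and 0.56 (adjusted p = 0.028). Ndufa4, Ndufs8 and Ndufb8 rose by 0.41 to 0.48. In complex IV, Cox6c went from 534 and 505 CPM to 908, 623 and 708 CPM and rose by 0.57 (SE 0.12, edgeR adjusted p = 0.020), with Cox7c, Cox7b, Cox6b1 and Cox5b at 0.35 to 0.49. In complex III only Uqcrq passed, at 0.50 (adjusted p = 0.018). Ndufa6, an accessory subunit of complex I, was the member that fell: 189 and 196 CPM in healthy and 146, 137 and 144 CPM in STA hashtags, a fall of 0.42 (SE 0.10, adjusted p = 0.028) with no overlap. Its adjusted p was 0.073, 0.10 and 0.074 without the STA hashtag of experiment 1, mild STA and severe STA, and 0.11 without the healthy hashtag of experiment 2.

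These calls lean on few hashtags. Without a term for experiment 1 member passed, and the count of 20 became 4 without the STA hashtag of experiment 1, 7 without the healthy one of experiment 1, 8 without mild STA and 9 without severe STA. The calls over all genes fell as well: 1303 rose and 1161 fell of 13249, against 345 and 213 of 13249 without the term, 473 and 377 of 12873 without the STA hashtag of experiment 1, 718 and 606 of 13322 without the healthy one, 829 and 759 of 13320 without mild STA and 1100 and 1072 of 12838 without severe STA. Chondrocyte markers summed to 314 to 437 CPM in the STA hashtags and 107 and 141 in the healthy ones, and osteoblast markers to 24.4 to 59.5 CPM against 136 and 72.8; their part in the result was not tested. Cells of STA hashtags were also deeper: a median of 14559 to 17021 UMIs per cell against 7558 and 10819 in healthy ones. The part of this depth in the result was not tested. A sum over all classes mixes class makeup with the level within a class, and these are given apart below.

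The class makeup moved with STA. The authors' Mmp3+ class made up 2.45% of the healthy and 69.5% of the STA fibroblasts in experiment 1, and 10.8, 49.1 and 40.6% of healthy, mild and severe fibroblasts in experiment 2. Mmp3+ cells held 15759 to 20267 CPM of members against 11045 to 15386 in Il6+ and 13196 to 15813 in Pi16+ cells. Within Il6+ cells the sums were 12499 CPM in healthy and 15386 in STA (experiment 1), and 11045, 11267 and 12013 in healthy, mild and severe (experiment 2). Within Pi16+ cells they were 15296 and 15813 CPM, and 13829, 13736 and 13196 CPM. Mmp3+ cells of experiment 2 held 15759, 16275 and 17803 CPM in healthy, mild and severe, with 29 healthy cells. Lining cells of experiment 1 held 18055 CPM in healthy and 22583 in STA, in 49 and 54 cells. The same test, run after seeing these values, called 1 of 74 members within Il6+ cells (median 0.11) and 0 within Pi16+ cells (median 0.00; 3 at an unadjusted p under 0.05, edgeR). Few genes of any kind were called there: 113 rose and 93 fell of 9325 within Il6+ cells, and 43 and 44 of 9766 within Pi16+ cells. The member called in Il6+ cells was Ndufa3, at 0.90 (adjusted p = 0.039); in Pi16+ cells it was at 0.28 (adjusted p = 0.75).

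**Figure D4:**
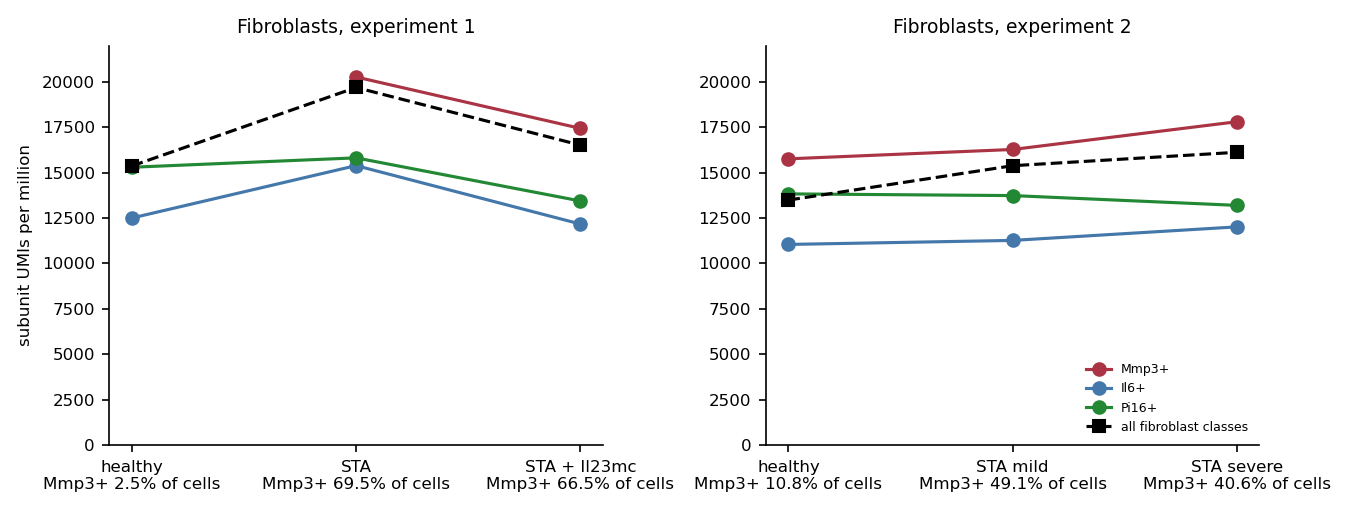
Summed level of all members (y axis, CPM, from 0) in Mmp3+, Il6+ and Pi16+ cells and in all fibroblast classes together (dashed), by condition, for each experiment; 1 hashtag per point, with the Mmp3+ share below each condition. Mmp3+ cells lie above the other 2 classes in each condition drawn, and Pi16+ cells differ by less between healthy and STA than the sum over all classes.

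Beside the members, 8 of 13 glycolysis genes rose in STA fibroblasts and Pfkp fell, with a list median of 0.79. Pgk1 rose by 1.05, Pkm by 1.01 and Gapdh by 0.81 (adjusted p = 0.0031, 0.0024 and 0.0044). Of the mitochondria-encoded subunits mt-Co1, mt-Cytb and mt-Nd4 rose (3 of 13), by 0.42, 0.34 and 0.33. Assembly factors had 4 of 35 higher (Cox14, Cox17, Timmdc1, Tmem70), the citrate cycle 1 of 12 (Mdh2) and the carrier and remaining subunits 1 of 4 (Atpif1, the inhibitor of the ATP synthase, by 0.71). No complex II gene or biogenesis factor passed in edgeR.

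Whether STA acted differently in the 2 cell types was tested directly with the 2 fitted together. None of 78 members passed, against 2.38% of all genes; 11 had an unadjusted p under 0.05 and the smallest adjusted p was 0.084, for Atp5g2 (0.69 in fibroblasts and 0.11 in ILC2). The median difference was 0.05. The joint fit gave its own ILC2 values, with Ndufa3 at 0.996, which differ from those of the separate ILC2 test. A different count of calls in fibroblasts and ILC2 is therefore not shown to be a different response.

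The one-hashtag comparisons have no replicate check, and a gene was counted as higher or lower when its 95% counting interval lay past the median ratio of all genes, a rule chosen after seeing the values. In ILC2 of experiment 2, severe STA against healthy had 32 of 73 members higher and 0 lower (11.3 and 12.5% of all genes), with a median of 0.15 against 0.01. With 1 rule for hashtags and classes in the whole well it was 25 higher and 0 lower (11.3% of all genes in either direction), with a median of 0.11 against -0.01. Severe against mild STA had 9 higher and 0 lower (7.1 and 8.66% of all genes). In fibroblasts severe against mild STA had 13 of 76 higher and 3 lower (10.3 and 11.1%), a median of 0.07. Fibroblasts of Il23mc against STA in experiment 1 had 12 of 76 higher and 28 lower (21.6 and 18.1%). There the median of all genes was itself at -0.24 and that of the members at -0.28.

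Between healthy ILC2 and healthy fibroblasts, members were called less often than all genes tested, and the direction of the calls differed by complex. Against fibroblasts, ILC2 had 11 of 74 members higher (27.7% of all genes) and 20 lower (34.9%), but these were split by complex. Of 17 complex V genes 7 were higher and 0 lower, and of 38 complex I genes 17 were lower and 1 higher. The 17 include Ndufa4l2, counted with complex I by its symbol. The cell types were in separate wells, so well and cell type cannot be told apart. In fibroblasts the order of the sums was reversed, with complex I at 5282 and 4532 CPM in the 2 healthy hashtags and complex V at 4535 and 4008 CPM. With other size factors (RLE) the split over all members was 7 higher and 24 lower, with the median of all genes moving from -0.08 to -0.16. Without the fibroblast hashtag of experiment 1 it was 7 higher and 13 lower.

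In complex V, Atp5mpl was at 327, 300, 334 and 266 CPM in the 4 healthy ILC2 hashtags and at 132 and 163 CPM in fibroblasts, with no overlap (1.18, SE 0.19, edgeR adjusted p = 3.6e-05). Atp5g2 was at 478, 478, 497 and 432 CPM against 295 and 203 CPM (1.00, SE 0.18, adjusted p = 0.00011). Atp5e, Atp5md, Atp5h, Atp5c1 and Atp5l, from membrane, stalk and head of the enzyme, were higher by 0.43 to 0.69. Of complex III, Uqcrh was higher by 0.67 (adjusted p = 0.0035), and of complex IV, Cox7a2l by 0.55 and Cox7b by 0.51.

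In complex I the direction was the opposite. Ndufs5, a small subunit at the outer face of complex I, was at 51.6, 64.0, 71.1 and 73.7 CPM in ILC2 and 183 and 136 CPM in fibroblasts, lower by -1.13 on the log2 scale (SE 0.19, edgeR adjusted p = 6.1e-05). Ndufb9 was at 99.4, 102, 108 and 94.0 CPM against 266 and 199 CPM (-1.11, SE 0.16, adjusted p = 1.6e-05). Ndufa8 (-0.99), Ndufb2 (-0.93), Ndufa5 (-0.92) and Ndufc1 (-0.91) were lower as well. Uqcrb, the complex III gene that rose in STA ILC2, was lower in ILC2 than in fibroblasts by -1.04 (SE 0.16, adjusted p = 2.8e-05), at 72.0 to 103 CPM against 220 and 174 CPM. Among the related lists, 12 of 13 mitochondria-encoded subunits were higher in ILC2, with a median of 0.89.

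Ndufa4l2, a gene known to rise under low oxygen and to dampen respiration, set the cell types apart. None of 22202460 UMIs in ILC2 came from it, while the healthy fibroblast hashtags held 63.7 and 67.0 CPM, at least 182-fold higher against a floor of 3 counts over the healthy ILC2. In fibroblasts it was at 81.1 CPM in STA and 212 CPM in Il23mc of experiment 1, and at 97.0 and 142 CPM in mild and severe STA. The STA test did not pass (0.64, SE 0.20, edgeR adjusted p = 0.070). Il23mc against STA was a ratio of 2.61 (95% counting interval 2.45 to 2.78, 1 hashtag each), and severe against mild STA 1.47 (1.33 to 1.62). Cox4i2, the low-oxygen form of the complex IV subunit Cox4i1, was at 8.91 CPM in Il23mc and 1.81 CPM in STA fibroblasts (ratio 4.93, 3.31 to 7.55), and at 3.80 CPM in healthy ones.

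By the authors' classes the order of the members' sum was, by median over hashtags, ILC3-1 (20867 CPM, 6 hashtags), Lining (20319, 2), Mmp3+ (17436, 5), ILC3-2 (16801, 6), Osteoblasts (16062, 3), ILC2-1 (15845, 7), Precursors (15281, 6), ILC2-2 (14412, 7), Chondrocytes (14028, 2), Cd200+ (13906, 2), Pi16+ (13782, 6), ILC2-3 (13449, 7) and Il6+ (12091, 6). The classes come from clustering the same cells, so this is a description. The hashtags behind a median differ by class and pool conditions and experiments; Chondrocytes had only the 2 healthy hashtags, in both of which Pi16+ cells were higher (15296 against 15155 CPM, and 13829 against 12901). Ranges of neighbours overlapped: ILC3-1 spanned 19196 to 25714 CPM, Lining 18055 to 22583 and Mmp3+ 15759 to 20267. The extremes did not: each ILC3-1 value lay above each Il6+ value (11045 to 15386). The highest ILC3-1 values, 25714 and 25434 CPM, came from Il23mc mice 1 and 2. There 97.0 and 91.1% of the ILC3-1 cells held a Cd3d or Cd3e UMI. Healthy ILC3-1 hashtags ran from 19196 to 21650 CPM.

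**Figure D5:**
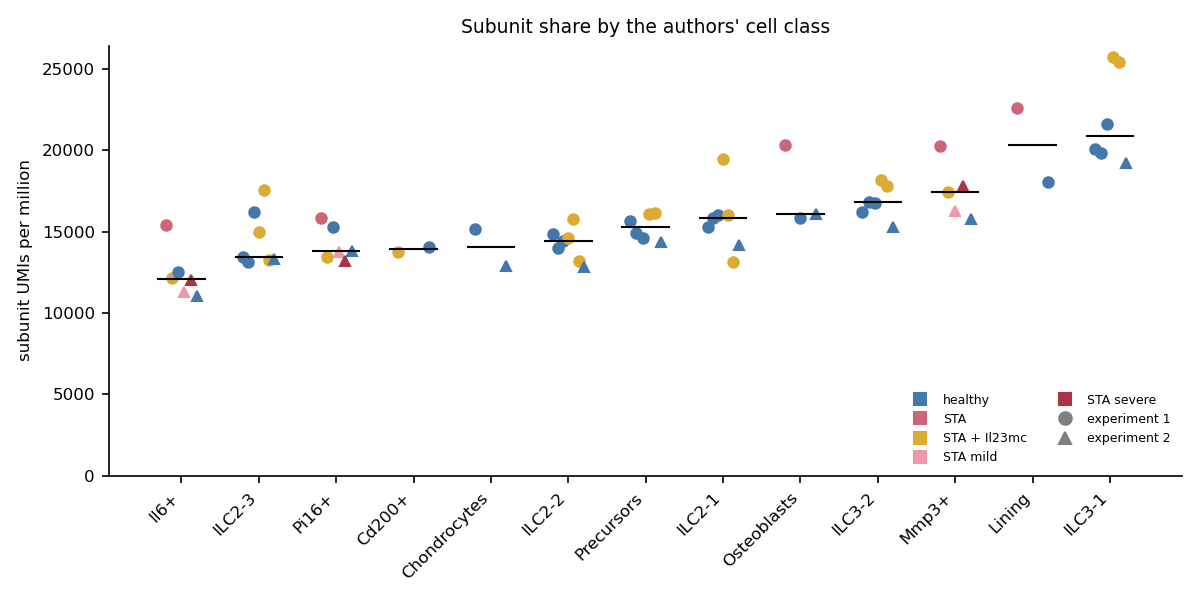
Summed level of the members (y axis, CPM, from 0) by the authors' cell class (x axis, ordered by the median, black line), 1 point per hashtag with at least 20 cells. Circles are experiment 1 and triangles experiment 2. ILC3-1 reaches 25714 in Il23mc mouse 1, where 97.0% of its cells held a Cd3d or Cd3e UMI, and Il6+ is lowest at 11045.

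ILC3 held a higher share of member UMIs (CPM) than the ILC2 of the same hashtag in all 7 hashtags with both. Of 73 members at the level tested 42 were higher in ILC3 in all 7 hashtags and 0 lower in all 7, against 18.2 and 8.14% of all genes. By complex these were 18 of 37, 4 of 8, 8 of 11 and 12 of 17 for I, III, IV and V. The median log2 ratio was 0.41 against 0.15 over all genes. Ndufs5 (median 0.82, range 0.74 to 1.15) and Atp5md (0.76, 0.32 to 1.17) were the farthest apart, while Atp5g2 was at -0.15 and higher in 2 hashtags. Many ILC3 of Il23mc mice held Cd3d or Cd3e UMIs: 88.7, 81.4 and 25.0% of the cells of mice 1, 2 and 3, against 0 to 7.13% in healthy mice. Without these cells, a choice made after seeing the data, the ILC3 sums of mice 1 and 2 went from 21555 and 21725 CPM to 15958 and 16212 CPM. Then 18 members, against 629 of all 4742 genes, were higher in all 7 hashtags. Il23mc mice 1 to 3 were left with 52, 41 and 21 ILC3 cells and 191131, 154202 and 85866 UMIs. The part of this lower depth in the count was not tested.

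Isoforms known from muscle and other tissues were near absent from the classes. The 8 members below the level tested in ILC2 were Cox4i2, Cox6a2, Cox6b2, Cox7a1, Cox7b2, Cox8b, Cox8c and Ndufa4l2, and in fibroblasts Cox7b2 and Cox8c were. In STA fibroblasts Cox6a2, Cox8b and Cox7a1 had the lowest values of all members, at -1.55 (SE 0.73), -1.26 (SE 0.74) and -1.06 (SE 0.54), and none passed (edgeR adjusted p = 0.19, 0.28 and 0.22). Cox8c had no UMI in any class, and Cox6a2, Cox7a1, Cox8b and Cox6b2 stayed at or below 20.1 CPM there, while Cox6a1, Cox7a2, Cox8a and Cox6b1 were each at 106 CPM or more in every class. Cox4i1 ran from 445 CPM (ILC2-2) to 1107 CPM (Lining). Ndufa4l2 was at 268 and 725 CPM in the 2 Chondrocytes hashtags, 86.2 to 242 in Mmp3+, 40.6 to 73.0 in Il6+ and 8.59 and 30.6 in Lining cells. Cox4i2 was at 40.0 and 98.0 CPM in Chondrocytes and 6.04 to 107 in Osteoblasts, and at or under 10.5 CPM in the other fibroblast classes.

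Of the 81 members, 28 share exon bases with a gene on the other strand and 5 with one on the same strand, and 8 have a near-identical copy elsewhere (95% or more over at least 150 of the last 300 bases). For these the authors' counting could mix or drop reads; 1 copy, of Atp5g1, is itself in the features table.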

How the data were processed

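The authors deposited raw UMI counts per gene and barcode on mm10; Cell Ranger is version 6.0.6 in the submitters' processing notes and 6.1.2 in the files, per the file headers. They also deposited a table of 8042 cells with UMI counts, the mitochondrial fraction (a share of each cell's UMIs), hashtag call and class, as deposited; 8039 matched a barcode. How the fraction was thresholded and the classes made is not given in the sources used here. STA ILCs of either experiment are not in that table. For them, hashtags were called with HTODemux (Seurat 5.3.0), which leaves out doublets between hashtags (191 and 1156 in these wells), and cells with at least 2000 UMIs, 700 genes and at most 10% mitochondrial UMIs took the class of their 15 nearest neighbours (30 components, 2000 variable genes; scanpy 1.11.5, scikit-learn 1.9.0). Checked on wells left out of training, the authors' class was found again for 73.6 to 99.4% of ILC2. For ILC3 it was 12.9 to 94.3%, so no passed-on ILC3 was used. This check does not give how many missed ILC3 were taken as ILC2, and their part in the STA ILC2 was not tested. ILC3 markers summed to 578 to 762 CPM in STA and 614 to 753 in healthy ILC2 of experiment 1. In experiment 2 these were 611 CPM in healthy, 627 in mild and 752 in severe STA ILC2.

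UMIs were summed per hashtag and class and compared with edgeR 4.0.16 (quasi-likelihood test, TMM, filterByExpr; R 4.3.3), Benjamini-Hochberg adjusted over all genes tested at 0.05. The SE is the log2 fold change over the root of F. The ILC2 fit held 9 mice, the fibroblast fit 6 hashtags with the Il23mc hashtag as a level of its own, and the healthy fit 6 hashtags with a term for experiment. The code was tested on simulated data. In ILC2 STA against healthy it recovered 3 of 67 genes changed 1.5-fold, 29 of 67 changed 2-fold and 58 of 66 changed 4-fold. In fibroblasts these were 7 of 67, 31 of 67 and 54 of 66. Each of these 2 tests also made 9 false calls. A member that was not called is therefore not shown to be unchanged. Hashtags whose separate origin is unknown give p-values that measure only the spread between them. Counting intervals are exact, at 95%, and cover counting error only. Alternatives were DESeq2 1.42.0, RLE factors, no filter on low counts, other cell sets, a replicate block and leaving out each hashtag. Gene copies were searched with BLAST 2.17.0. The members and lists were chosen with earlier results of these data known. For each test the named members are up to 8 higher and 8 lower past the threshold, the most abundant one of each complex, and the tissue isoforms; others named by group were chosen after their values were seen. No protein sequences were used here. The result for 1 member is not reported here.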

Additional observations from a re-analysis of the deposited data

Results flagged for a closer look

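Cox6a2, the muscle form of a complex IV subunit, gave a signal outside the cells used. In the STA ILC well, barcodes outside those cells held 141 Cox6a2 UMIs, while the healthy ILC well had none. In the fibroblast wells the same count was 926 in experiment 1 and 2088 in experiment 2, with no condition known for most of these barcodes, since 3 of 44 and 13 of 94 of those with 3 or more Cox6a2 UMIs had a hashtag call. The level of 3 UMIs was chosen after seeing the values. In the fibroblast wells such barcodes gave 70293 and 70328 CPM to all members together, against 18178 and 17208 CPM in the other barcodes, and Acta1, an actin of skeletal muscle, was at 37219 and 34280 CPM. Cox7a1 and Cox8b stood at 641 and 1477 CPM in experiment 1 and 662 and 1605 CPM in experiment 2. In the STA ILC well, 22 barcodes held 269 of 276 Cox6a2 UMIs. There the members gave 24184 CPM, Acta1 was at 199 CPM, Cox8b at 7.94 CPM, and Siglech at 1633 CPM against 3.76 in the other barcodes. Of the ILC2 sums used in the comparisons STA mouse 2 held 81 Cox6a2 UMIs in 6 cells, all with a Siglech UMI, and STA mice 1 and 3 held 1 each, in a cell without Siglech; without such cells, a choice made after seeing the data, ILC2 of STA against healthy had 4 members called in place of 3.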

How the results depend on the processing

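Counts of members past the threshold moved as follows; the cause was not tested. ILC2 STA against healthy (3) gave 6 with no filter on low counts, 0 over all called cells of the ILC wells, 5 when each well used the same hashtag caller and class transfer, 7 without cells holding Cd3d or Cd3e UMIs, 6 with both experiments (added after seeing the data) and 1 to 7 leaving out 1 hashtag. Il23mc against STA (1) gave 2 with no filter and 0 to 1 leaving out 1; Il23mc against healthy (6) gave 1 to 11. Fibroblast STA against healthy (20) gave 38 with no filter, 1 with no experiment term, 1 in Il6+ and 0 in Pi16+ cells (both added after seeing the data) and 4 to 20 leaving out 1. Healthy ILC2 against fibroblasts (31) gave 20 to 31 leaving out 1. Only the members named by the rule above entered 1327 single-gene comparisons with an alternative. Of these, 1203 kept direction and side of the threshold, 114 lost the call, 9 gained one and 1 turned. The last was Ndufa4 in fibroblasts, at -0.0373 in Pi16+ cells. Called fibroblast members outside that rule turned too: Cox7c, Uqcrq and Ndufs8 had lowest values of -0.160, -0.0998 and -0.0204 over the settings. Ndufa3 was called in 18 of 19, 18 of 18 and 13 of 14 settings for ILC2 STA, ILC2 Il23mc against healthy, and fibroblast STA. Mouse numbers did not pair the mice: same-numbered mice correlated at -0.13 to 0.13, and with the number as a replicate block the 3 ILC2 counts were 3, 1 and 4. ILC2 sums held 795046 to 2030655 UMIs per mouse; the part of depth in the counts was not tested.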
